A study of Bos taurus with 33 samples.

Results

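Insulin-like growth factors (IGFs), their receptors and their binding proteins were followed in bovine endometrium, the inner lining of the uterus, during early pregnancy and after interferon treatment. All probe sets that the annotation of the bovine array assigns to IGF1, IGF2, IGF1R, IGF2R and IGFBP1 to IGFBP6 were taken, whatever their values. They made up 19 of the 24016 probe sets tested and 10 of the 9155 genes with a symbol of their own. IGF1 and IGF2 had 4 probe sets each, IGF1R, IGF2R and IGFBP3 had 2 each, and the other binding proteins had 1 each. Where a gene has several, they are lettered from A, the probe set with the highest mean log2 value over the 33 arrays, downwards, and the plots give each letter with its probe set name.

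The 33 animals were Bavarian Simmental heifers whose cycles were synchronised with 500 µg of cloprostenol, a prostaglandin analogue, and each animal gave 1 array. In the first experiment, human interferon alpha (IFNA) released from a lipid extrudate was placed on day 14 into the uterine horn beside the corpus luteum (n = 3), the placebo was the extrudate alone (n = 3), the control was phosphate-buffered saline (PBS, n = 3), and about 6 biopsies were cut from each uterus on day 16. In the second experiment, pregnant heifers had been inseminated on day 1 with sperm of the same bull and cyclic heifers had received the sperm-free supernatant. They were slaughtered on day 12 (5 pregnant and 5 cyclic), day 15 (3 and 3) or day 18 (4 and 4). The tissue of the slaughtered animals was intercaruncular endometrium, from the distal part of the horn on day 12, the medial part on day 15 and the caudal part on day 18, so day and part of the horn cannot be told apart. Biopsies came from the caudal part. Uteri were flushed before biopsy and on day 12, and conceptuses were removed on days 15 and 18. The interferon was the human protein, given to cyclic cattle, and is a relative of interferon tau, the ruminant conceptus signal of pregnancy.

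IGF1 and IGF2 are secreted peptides that act through the tyrosine kinase receptor IGF1R, while IGF2R takes up IGF2 and carries it to lysosomes for breakdown. Most IGF in tissue fluid is held by IGF binding proteins, which limit or prolong its access to the receptor and in part act without it. In ruminants, IGFBP1 is made by the luminal epithelium of the uterus and is used as a marker of the receptive endometrium, and the free-floating conceptus elongates in a uterine fluid that contains these proteins.

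The 4 sets of arrays (biopsies, day 12, day 15, day 18) had different overall distributions, with median log2 values of 6.64, 6.86, 6.50 and 7.25, and nearly identical distributions within each set. Levels were therefore compared as deposited within a set, and after subtraction of each array's own median (median-centred log2) across sets. The interferon-stimulated genes ISG15 and MX1 followed the labels: ISG15 was 4.91 log2 higher with IFNA than with placebo, 5.24 higher in pregnant than in cyclic heifers on day 15 and 4.90 higher on day 18. The 3′ minus 5′ difference of the GAPDH control probe sets, used as a measure of RNA integrity, was 1.03 to 3.87 log2 in the 9 biopsy arrays, against -0.16 to 0.56 in the 24 slaughter arrays. That of the actin control probe sets went the other way, at 0.53 to 1.54 log2 in the biopsy arrays against 1.94 to 2.67 in the slaughter arrays. Whether the RNA of the biopsies was less intact was not tested. Trophoblast transcripts did not pass in any within-day comparison, and their summed log2 level was 6.86 to 6.96 in pregnant and 6.78 to 6.94 in cyclic heifers on day 18.

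Pregnancy differences in the IGF system passed the test on day 18 and on no earlier day, and no treatment difference passed. The share called over all probe sets also rose by day, and no change of an IGF pregnancy difference between days passed. A probe set passed where its Benjamini-Hochberg adjusted p in limma, over all 24016 probe sets, was below 0.05. On day 18, 3 of the 19 probe sets passed, all lower in pregnant heifers, where 10.2% of all probe sets were lower and 19% passed in either direction. These were 1 probe set each of IGF1, IGF2R and IGFBP3. On day 15 none of 19 passed, against 5.07% of all probe sets, with 2 of 19 at an unadjusted limma p below 0.05 (all probe sets 18.7%). On day 12 none passed, against 0.00416% of all probe sets, with 5 of 19 at an unadjusted p below 0.05 (all probe sets 6.65%), and no probe set had groups without overlap (0.954% of all probe sets). In the biopsies none passed for IFNA against placebo (background 0.866%), with 2 of 19 at an unadjusted p below 0.05 (8.47%), or for IFNA against PBS (background 0.862%), with 3 of 19 (9.34%). None passed for placebo against PBS either, where the background was 0% and 2 of 19 had an unadjusted p below 0.05 (2.71%). On day 18 the median absolute difference of the 19 probe sets was 0.28 log2, against 0.13 log2 for all probe sets. It was 0.148 against 0.068 on day 12, 0.217 against 0.113 on day 15 and 0.22 against 0.113 for IFNA minus PBS. For IFNA minus placebo it was 0.0633 against 0.12, and for placebo minus PBS 0.0967 in both. The 3 arrays a group of day 15 and of the biopsies limited the precision, with a median standard error of a difference of 0.117 and 0.147 log2, against 0.101 on day 18 and 0.0906 on day 12. In whole tissue, fewer cells of a type and less RNA per cell cannot be told apart.

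**Figure D1:**
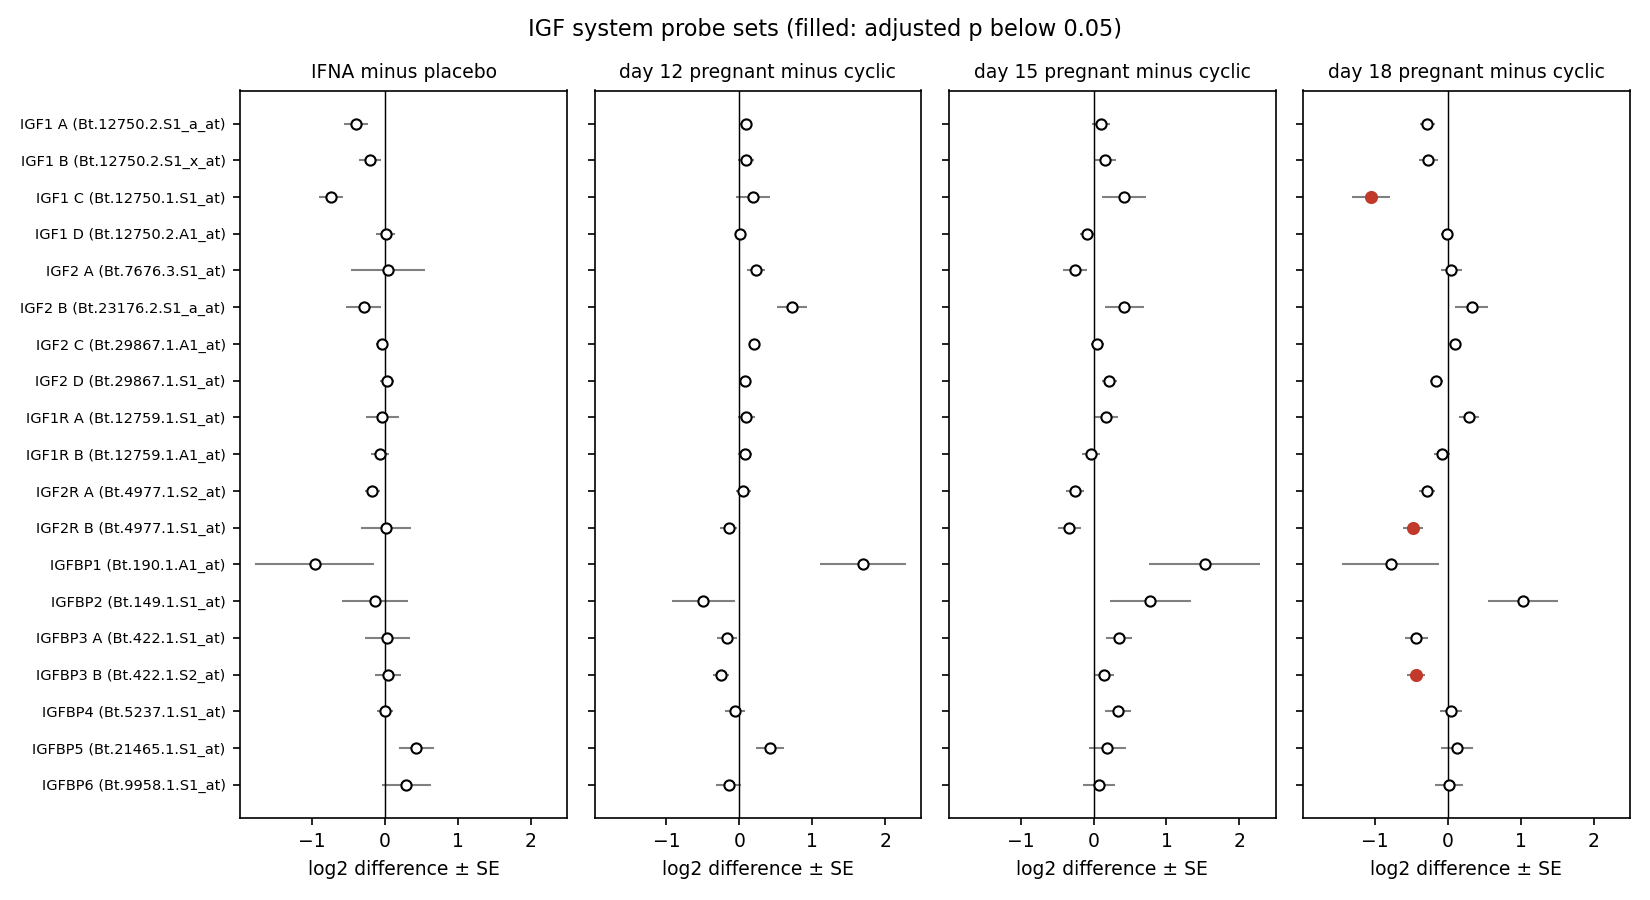
Differences in log2 level for the 19 probe sets of the IGF system in 4 comparisons (IFNA minus placebo, and pregnant minus cyclic on days 12, 15 and 18), with points for the limma estimate, bars for its standard error and filled points for an adjusted p below 0.05. The 3 filled points, all on day 18 and all below 0, belong to IGF1, IGF2R and IGFBP3. The IGFBP1 estimates carry the widest bars, followed by IGFBP2 on days 12, 15 and 18 and by IGF2 A for IFNA minus placebo.

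Cell type markers moved in the same comparisons, beside the 19% of all probe sets that passed on day 18 (10.2% lower). On day 18, 4 of 6 endothelial markers were lower in pregnant heifers (PECAM1 by 0.83, VWF by 0.64, PLVAP by 0.97 and KDR by 0.78 log2), and the summed endothelial level was 10.77 to 11.04 in pregnant against 11.11 to 11.65 log2 in cyclic heifers, without overlap. Of 8 stromal markers PDGFRA rose and COL3A1 fell, with summed levels of 15.19 to 15.42 in pregnant against 15.41 to 15.52 log2 in cyclic heifers. Of 7 leukocyte markers CSF1R rose by 0.85, with summed levels of 10.77 to 11.11 against 10.24 to 10.67 log2, and of 5 epithelial markers CDH1 rose and KRT18 fell. None of 3 erythrocyte and 5 smooth muscle markers passed. In the biopsies the summed endothelial level was 10.78 to 11.30 log2 with IFNA, 11.20 to 11.58 with placebo and 11.75 to 11.89 with PBS, and the stromal level 14.91 to 15.40, 15.36 to 15.63 and 15.47 to 15.73, in the same order. The summed leukocyte level was 10.65 to 10.81 with IFNA, 9.74 to 10.54 with placebo and 10.36 to 10.57 with PBS. Of the cell type markers, 1 of 7 leukocyte markers was higher for IFNA against placebo (0.866% of all probe sets passed). For IFNA against PBS, 2 of 6 endothelial markers were lower (0.862%). The part of these shifts in the IGF differences described next was not tested.

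Among the ligands, IGF1, the peptide that growth hormone induces in liver and that many tissues make locally, was lower in pregnant heifers on day 18. On probe set C the log2 values were 5.76, 5.42, 5.06 and 5.48 in pregnant heifers, against 6.64, 6.23, 6.54 and 6.53 in cyclic heifers. Every pregnant animal lay below every cyclic animal, which held for 8 of the 19 probe sets in one direction or the other and for 21% of all probe sets. IGF1 fell 2.08-fold in pregnant heifers (-1.055 ± 0.263 log2, SE; 95% interval -1.60 to -0.51; adjusted p = 0.00676). With each of the 8 day 18 arrays left out in turn the difference stayed between -1.165 and -0.93 and passed each time. A second probe set, IGF1 A, read 8.25, 8.07, 8.03 and 8.22 in pregnant heifers, against 8.32, 8.41, 8.47 and 8.49 in cyclic heifers, again without overlap. Its difference of -0.28 ± 0.103 log2 did not pass (adjusted p = 0.0613), nor did that of IGF1 B (-0.265, adjusted p = 0.160). The last of the IGF1 probe sets, IGF1 D, showed no difference beyond its error on day 18 (-0.01 log2, adjusted p = 0.968).

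On the earlier days the groups overlapped on IGF1 C. The day 12 difference was +0.19 ± 0.235 log2 (adjusted p = 0.950). The day 15 log2 values on IGF1 C were 6.31, 5.87 and 6.07 in pregnant heifers, against 5.96, 5.83 and 5.22 in cyclic heifers, a difference of +0.41 ± 0.303 (adjusted p = 0.527). The change of the pregnancy difference between day 15 and day 18 was -1.47 ± 0.401 log2, and this test of the difference itself did not pass (adjusted p = 0.155). For that test over all 19 probe sets, none passed and 7 had an unadjusted limma p below 0.05, against 0.208% and 9.27% of all probe sets. For the change between day 12 and day 15 none passed and 3 had an unadjusted p below 0.05, against 1.99% and 14.4%.

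Over the days, IGF1 on probe set C fell at both steps in pregnant heifers and at the first step in cyclic heifers. The median-centred log2 levels of IGF1 C in pregnant heifers were 1.04, 1.04, 0.68, 0.58 and 0.08 on day 12, then -0.17, -0.63 and -0.43 on day 15, then -1.48, -1.85, -2.17 and -1.75 on day 18. In cyclic heifers they were 0.91, 1.315, 0.35, -0.28 and 0.19 on day 12, then -0.55, -0.68 and -1.27 on day 15, then -0.62, -1.02, -0.71 and -0.725 on day 18. In pregnant heifers the 3 days did not overlap, while in cyclic heifers days 15 and 18 did. IGF1 C fell by 1.09 ± 0.273 log2 by day 15 (adjusted p = 0.0016) and by a further 1.40 ± 0.285 by day 18 (adjusted p = 0.000302) in pregnant heifers. In cyclic heifers IGF1 C fell by 1.33 ± 0.273 by day 15 (adjusted p = 0.000283), and the step to day 18 was 0.06 log2 (adjusted p = 0.868). The brighter IGF1 A and B did not pass at the step to day 15, with -0.04 and -0.21 log2 in pregnant and -0.06 and -0.28 in cyclic heifers. Their cyclic step to day 18 passed on the centred scale, with -0.31 (adjusted p = 0.0304) and -0.54 (adjusted p = 0.00274). As deposited it was 0.44 and 0.21. The order of the 9 group means of IGF1 C ran from the pregnant heifers of day 12 (0.68) through the cyclic heifers of day 12 (0.50), the pregnant heifers of day 15 (-0.41) and the cyclic heifers of days 18 (-0.77) and 15 (-0.83) to placebo (-1.52), PBS (-1.58), the pregnant heifers of day 18 (-1.81) and IFNA (-2.29). In cyclic heifers the step of IGF1 C to day 18 depended on scaling: on the values as deposited, where the median of all probe sets moved by 0.655, it was +0.815. In pregnant heifers the fall on IGF1 C by day 18 held its direction and its call on the other scales, with -0.65 as deposited (adjusted p = 0.0383) and -1.52 after quantile normalisation (adjusted p = 0.00027). On IGF1 A and B this pregnant step was -0.69 and -0.96 on the centred scale, but +0.06 and -0.21 as deposited.

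IGF1 was also, on probe set C, the member with the smallest adjusted p in the biopsies. On IGF1 C the values were 4.47, 4.45 and 4.18 log2 with IFNA, against 5.45, 4.96 and 4.91 with placebo and 5.22, 5.12 and 4.87 with PBS. All 3 IFNA animals lay below all 6 others. The differences of -0.74 ± 0.169 log2 from placebo (adjusted p = 0.125) and -0.70 ± 0.169 from PBS (adjusted p = 0.143) did not pass, and both use the same IFNA arrays. IGF1 C stood low on the IFNA arrays, at a mean percentile of 21.09. The other IGF1 probe sets overlapped placebo, with -0.40 on IGF1 A (adjusted p = 0.526), -0.21 on B (adjusted p = 0.787) and 0.0067 on D (adjusted p = 0.996). With arrays weighted by their quality the difference of IGF1 C from placebo passed (-0.98, adjusted p = 0.0233). Over all alternatives its adjusted p lay between 0.0233 and 0.311. Non-overlap with placebo held for 1 of the 19 probe sets, IGF1 C, against 10.5% of all probe sets, and non-overlap with PBS for 5 of 19, against 14.6%. The IFNA difference and the day 18 pregnancy difference in IGF1 C were 0.315 ± 0.373 log2 apart (95% interval -0.45 to 1.08; adjusted p = 0.796). The IFNA difference was 1.15 ± 0.398 log2 below the day 15 pregnancy difference, which did not pass (adjusted p = 0.199). Over all 19 probe sets none passed in either of these tests, against 1.09% and 0.371% of all probe sets, and 1 and 3 had an unadjusted limma p below 0.05, against 13.2% and 12.9%.

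**Figure D2:**
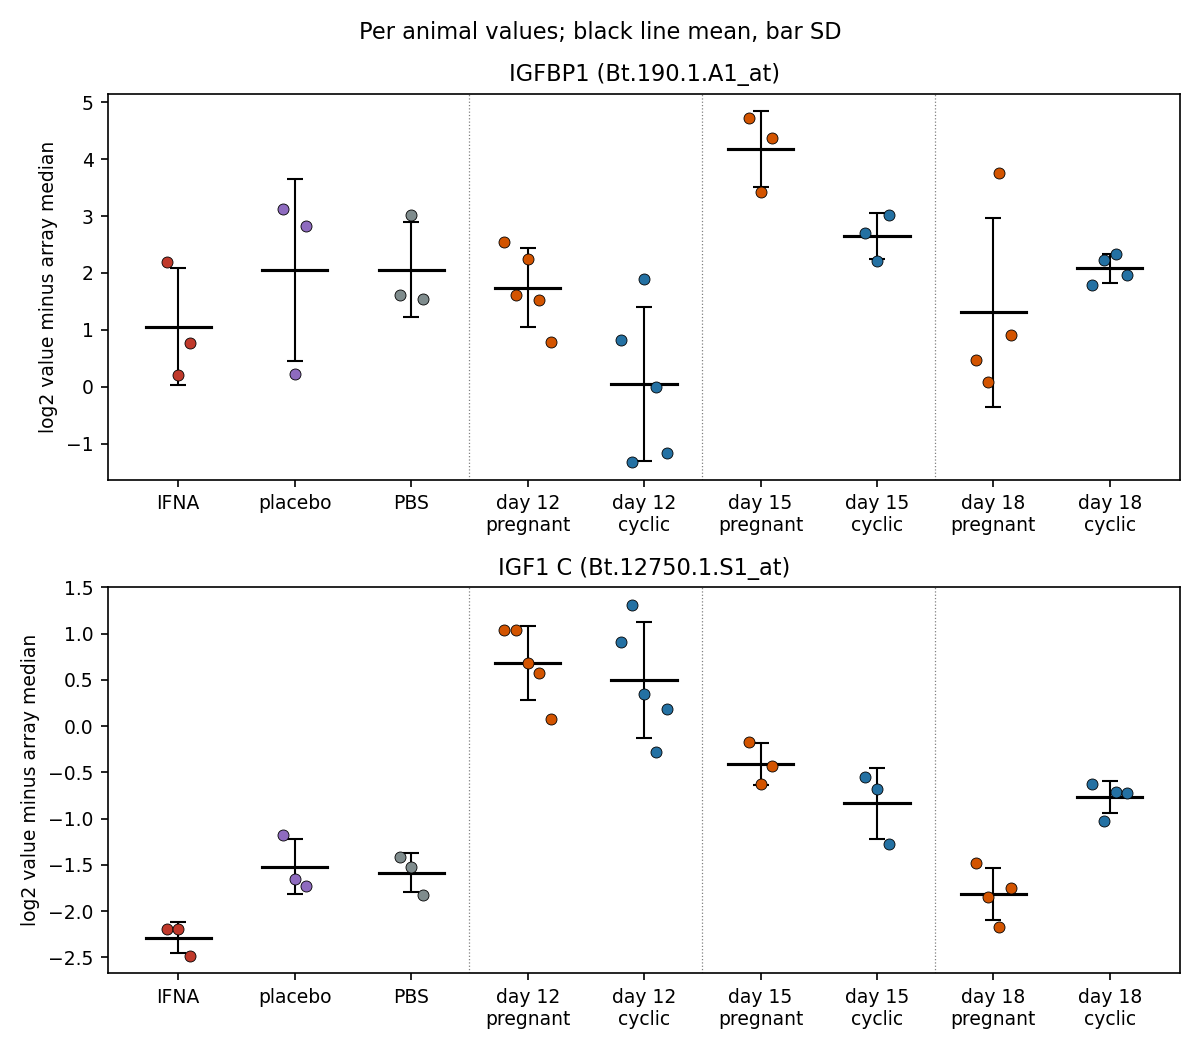
Median-centred log2 levels of IGFBP1 and of IGF1 C in the 9 groups, with points for animals, lines for group means and bars for the SD. The IGFBP1 mean peaks in pregnant heifers on day 15 at 4.18, and the IGF1 mean is lowest in the IFNA biopsies at -2.29 and in the pregnant heifers of day 18 at -1.81.

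The IGF1 probe sets did not all run together. Over the 24 slaughter arrays, the median-centred levels of 3 of them ran together, with Pearson's r of 0.844 to 0.945, while IGF1 D ran against them at -0.823 to -0.572. That probe set rose by 1.52 log2 in pregnant and 1.61 log2 in cyclic heifers between day 12 and day 15 (adjusted p = 1.2e-11 for both), in the opposite direction to IGF1 C. It is one of the 2 IGF probe sets that a filter on the dimmest 25% of probe sets removed from the slaughter arrays. The other is IGF2 D. Which transcript each IGF1 probe set reads was not tested.

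IGF2, a ligand made from an imprinted gene and abundant in fetal tissue, passed in no comparison of pregnant with cyclic heifers. Its brightest probe set, IGF2 A, read 11.04, 11.13, 11.09 and 11.29 log2 in pregnant heifers on day 18, against 10.91, 10.71, 11.52 and 11.22 in cyclic heifers. The cyclic animals enclosed the pregnant ones, and the difference was 0.05 log2 (adjusted p = 0.873). On day 12 a second probe set, IGF2 B, read 10.74, 11.01, 10.35, 10.59 and 9.92 in pregnant heifers, against 10.08, 9.83, 9.84, 9.26 and 9.97 in cyclic heifers. All but 1 of the pregnant animals lay above every cyclic animal, with a difference of +0.73 ± 0.204 log2 that did not pass (adjusted p = 0.454). On day 12 IGF2 A differed by +0.23 (adjusted p = 0.811) and IGF2 C by +0.21 (adjusted p = 0.536), in the same direction.

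Between day 12 and day 15 IGF2 A fell in both states, while the other IGF2 probe sets did not all follow it. Median-centred log2 levels of IGF2 A in pregnant heifers were 4.62, 4.61, 4.21, 4.42 and 4.27 on day 12, then 3.56, 3.66 and 3.19 on day 15, then 3.80, 3.86, 3.86 and 4.06 on day 18. Every pregnant animal of day 15 lay below every pregnant animal of days 12 and 18. In cyclic heifers the levels were 4.15, 4.225, 4.18, 4.22 and 4.21 on day 12, then 3.90, 3.81 and 3.43 on day 15, then 3.65, 3.46, 4.27 and 3.965 on day 18. IGF2 A fell by 0.96 ± 0.148 log2 in pregnant (adjusted p = 1.09e-05) and 0.48 ± 0.148 in cyclic heifers (adjusted p = 0.00784) by day 15. The cyclic step did not pass without day 15 cyclic animal 3 (-0.34, adjusted p = 0.0798). From day 15 to day 18 IGF2 A rose by 0.425 ± 0.154 log2 in pregnant heifers (adjusted p = 0.025), and by 1.17 as deposited. That call was lost without day 15 pregnant animal 3 (0.285, adjusted p = 0.172) or day 18 pregnant animal 4 (0.37, adjusted p = 0.0694). The pregnancy difference on IGF2 A changed by -0.48 ± 0.210 log2 between days 12 and 15, which did not pass (adjusted p = 0.280).

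On IGF2 B the centred step to day 15 was -0.67 log2 in pregnant heifers (adjusted p = 0.0195) and -0.37 in cyclic heifers, where it did not pass (adjusted p = 0.181). The pregnant call on IGF2 B was lost without day 12 pregnant animal 2 (adjusted p = 0.0548) or day 15 pregnant animal 3 (adjusted p = 0.102). IGF2 C went the other way on the centred scale, with +0.34 log2 in pregnant (adjusted p = 0.000368) and +0.49 in cyclic heifers (adjusted p = 8.81e-06). As deposited these IGF2 C steps were -0.0193 and +0.14 and did not pass. IGF2 D did not pass in either state (+0.11, adjusted p = 0.301, in pregnant and -0.05, adjusted p = 0.669, in cyclic heifers). By day 18 IGF2 C was 0.51 log2 below day 15 in pregnant heifers (adjusted p = 8.62e-06), a step of +0.24 as deposited. As deposited, the group means of IGF2 C lay between 5.50 and 5.93 log2 in all 9 groups. By mean level over the 33 arrays, IGF2 C and D stood at percentiles 35.06 and 20.98 of all probe sets, against 90.96 and 81.12 for A and B. Whether the dimmer C and D read above background is not known. On the centred scale the brighter A and B both went down by day 15, without a call on B in cyclic heifers, and C and D did not share that direction in both states.

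**Figure D3:**
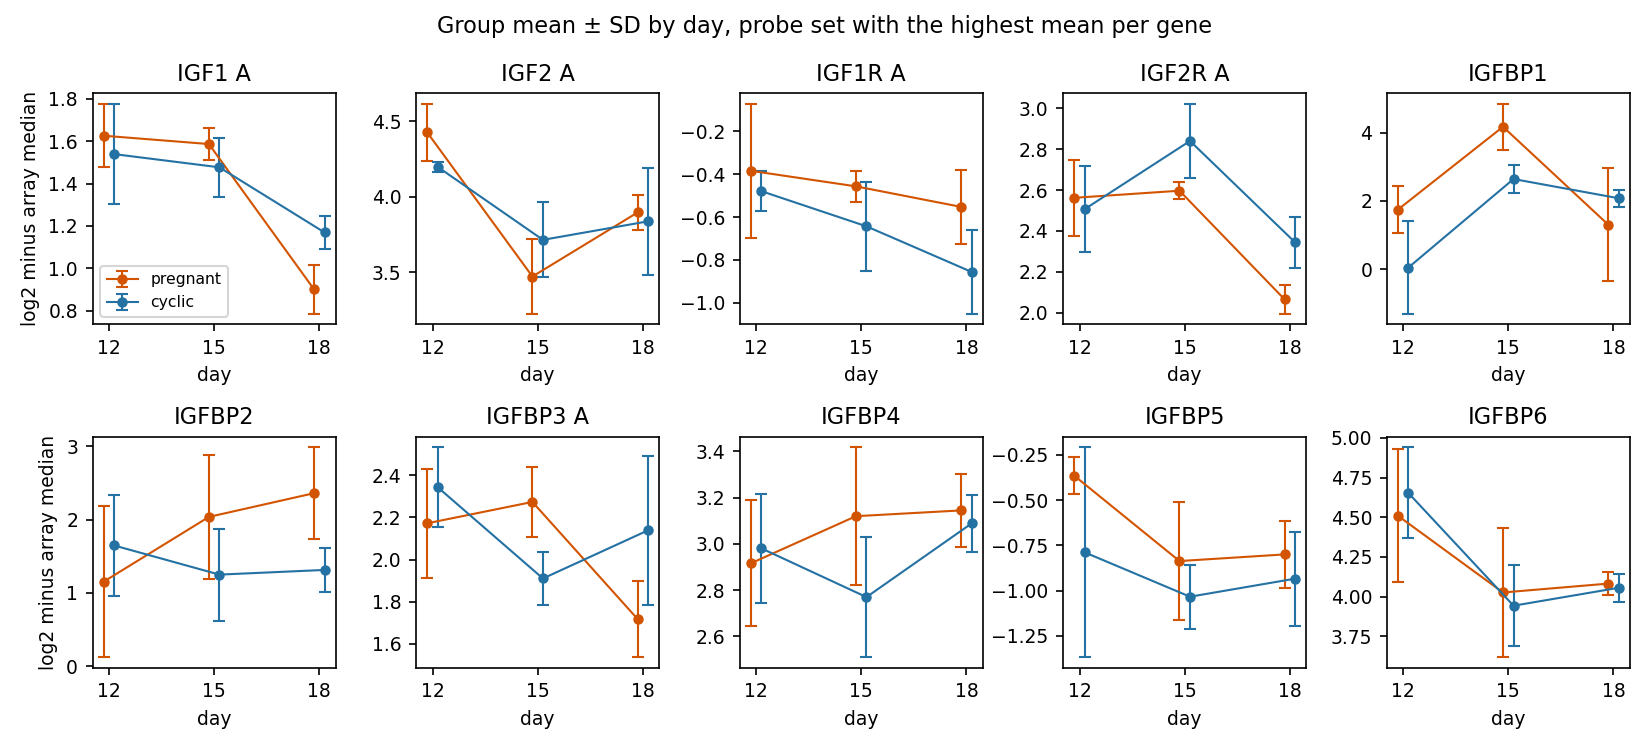
Median-centred log2 level of 1 probe set for each of the 10 genes on days 12, 15 and 18, as group means with SD bars for pregnant and cyclic heifers. IGFBP1 stands out with its rise to day 15 in both states and its lower mean on day 18 in pregnant heifers, 1.305 against 4.18 on day 15, and IGF2 A dips on day 15.

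Of the receptors, IGF1R, through which both ligands signal, did not pass in any within-day comparison. Its probe set A read 6.59, 6.78, 6.89 and 6.50 log2 in pregnant heifers on day 18, against 6.54, 6.40, 6.53 and 6.12 in cyclic heifers. Pregnant animals tended to the upper end but overlapped, and the difference was +0.29 ± 0.135 (adjusted p = 0.141). The second IGF1R probe set differed by -0.075 log2 (adjusted p = 0.706). In the biopsies IGF1R A read 5.53, 5.24 and 5.25 with IFNA, against 5.15, 5.15 and 5.83 with placebo and 4.91, 4.94 and 5.49 with PBS. The 3 groups overlapped, and IFNA differed by -0.04 ± 0.223 from placebo (adjusted p = 0.990) and by +0.23 ± 0.223 from PBS (adjusted p = 0.911).

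IGF2R, which clears IGF2 from the cell surface, was lower in pregnant heifers on day 18. On IGF2R B the log2 values were 7.75, 7.74, 7.75 and 7.80 in pregnant heifers, against 8.40, 8.16, 8.23 and 8.14 in cyclic heifers. The groups did not overlap, and the pregnant animals lay within 0.06 log2 of each other. IGF2R fell by 0.47 ± 0.136 log2 in pregnant heifers (95% interval -0.76 to -0.19; adjusted p = 0.0176), but without cyclic animal 1 the difference of -0.42 did not pass (adjusted p = 0.0569). The brighter probe set, IGF2R A, read 9.37, 9.26, 9.35 and 9.25 in pregnant heifers, against 9.71, 9.60, 9.66 and 9.42 in cyclic heifers. It too did not overlap, and its difference of -0.29 ± 0.109 did not pass (adjusted p = 0.0679), though it did after quantile normalisation over all arrays (-0.31, adjusted p = 0.0496).

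Pregnant heifers were also lower on average 3 days earlier, without passing the test. On day 12 the 2 probe sets differed in sign, with +0.056 log2 on IGF2R A and -0.148 on IGF2R B, and neither passed. On day 15 IGF2R A read 9.03, 9.13 and 9.11 log2 in pregnant heifers, against 9.54, 9.18 and 9.31 in cyclic heifers, and IGF2R B read 6.51, 6.25 and 6.54, against 7.10, 6.55 and 6.64. On neither did the groups overlap, as for 5 of the 19 probe sets and 22.7% of all probe sets, and neither difference passed (-0.25 ± 0.126, adjusted p = 0.288, and -0.33 ± 0.157, adjusted p = 0.260). By day, IGF2R B fell by 0.68 ± 0.138 log2 in pregnant and 0.51 ± 0.138 in cyclic heifers between days 12 and 15, and rose by 0.58 ± 0.145 and 0.72 ± 0.145 by day 18. As deposited, the steps of IGF2R B were -1.05 and -0.86 by day 15, then 1.33 and 1.47 by day 18, in pregnant and then cyclic heifers. The brighter probe set went the other way from day 15 to day 18 on the centred scale (-0.53 in pregnant and -0.50 in cyclic heifers), and its sign turned on the values as deposited (+0.22 and +0.25). The 2 IGF2R probe sets had a Pearson's r of -0.183 over the 24 slaughter arrays.

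In the biopsies IGF2R A read 9.36, 9.20 and 9.24 log2 with IFNA, against 9.60, 9.32 and 9.41 with placebo and 9.66, 9.67 and 9.74 with PBS. IFNA and placebo animals all lay below the PBS animals, with IFNA lowest on average. Against PBS, the differences were -0.42 ± 0.103 for IFNA (adjusted p = 0.148) and -0.25 ± 0.103 for placebo (adjusted p = 0.999), with the PBS arrays shared by both comparisons. Non-overlap of placebo and PBS held for 2 of the 19 probe sets, IGF2R and IGFBP4, against 6.24% of all probe sets.

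**Figure D4:**
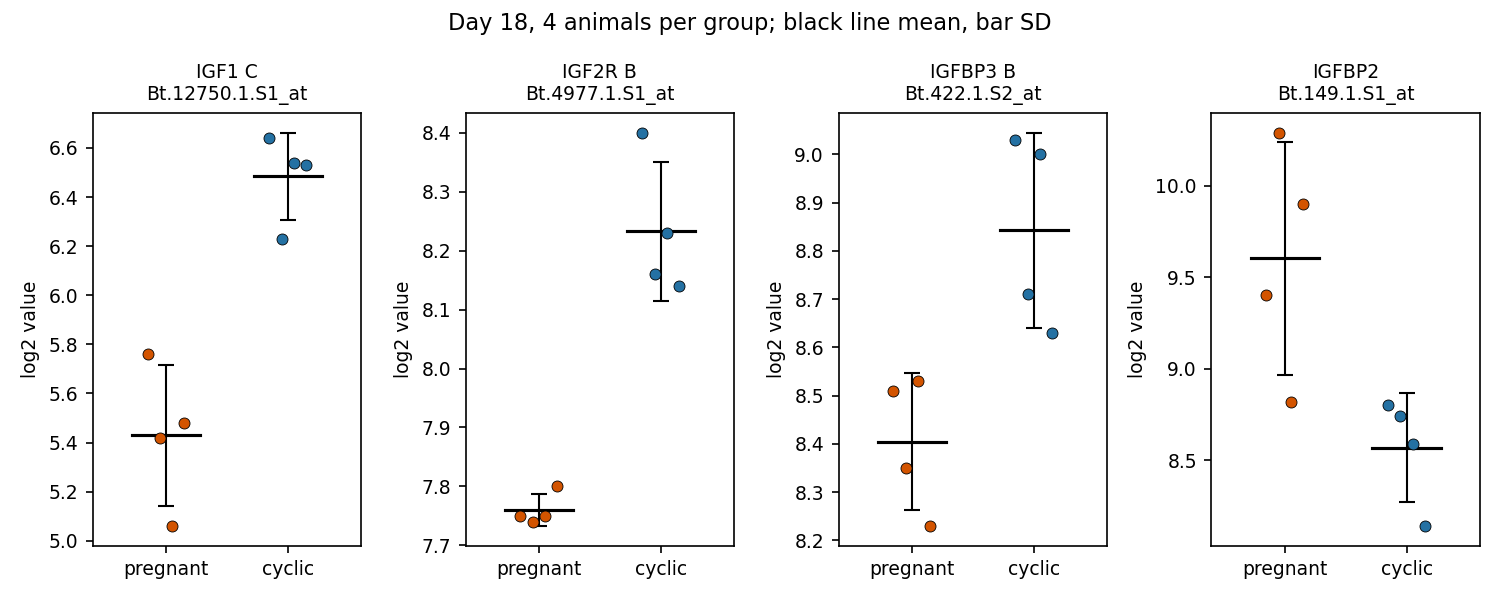
Log2 values on day 18, as deposited, for IGF1, IGF2R, IGFBP3 and IGFBP2, with pregnant heifers on the left and cyclic heifers on the right of each panel, points for animals and lines for group means. The 4 pregnant animals lie below the 4 cyclic animals for IGF1 and IGF2R and above them for IGFBP2.

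Among the binding proteins, IGFBP1 had the widest range over the groups. Its median-centred log2 levels averaged 4.18 ± 0.669 (SD, n = 3) in pregnant heifers of day 15, then 2.64 ± 0.404 (n = 3) in cyclic heifers of day 15, 2.08 ± 0.248 (n = 4) in cyclic heifers of day 18, 2.06 ± 0.835 (n = 3) with PBS and 2.05 ± 1.59 (n = 3) with placebo. Below these came the pregnant heifers of day 12 at 1.74 ± 0.686 (n = 5), the pregnant heifers of day 18 at 1.305 ± 1.66 (n = 4), the IFNA animals at 1.06 ± 1.03 (n = 3) and the cyclic heifers of day 12 at 0.045 ± 1.36 (n = 5). Pregnant and cyclic heifers of day 15 are the one pair of neighbours in this order whose means lie farther apart than the sum of their SDs, and the other neighbours do not differ beyond their spread.

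IGFBP1 rose between day 12 and day 15 in both states. Its centred levels in pregnant heifers were 2.54, 1.62, 2.25, 1.53 and 0.78 on day 12, then 4.72, 3.43 and 4.38 on day 15, then 0.47, 0.09, 3.75 and 0.91 on day 18. In cyclic heifers they were 0.82, -1.325, 1.90, -0.01 and -1.16 on day 12, then 2.71, 2.21 and 3.01 on day 15, then 1.79, 2.22, 2.34 and 1.965 on day 18. Day 15 was above day 12 in every animal of the same state. The rise was 2.43 ± 0.688 log2, or 5.40-fold, in pregnant (adjusted p = 0.00438) and 2.60 ± 0.688 log2, or 6.06-fold, in cyclic heifers (adjusted p = 0.00279), and it passed with every array left out in turn and in all 3 scalings.

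Between days 15 and 18 the step passed in pregnant heifers and not in cyclic heifers. From day 15 to day 18 IGFBP1 fell by 2.87 ± 0.720 log2, or 7.32-fold, in pregnant heifers (adjusted p = 0.00207), while in cyclic heifers the step was -0.56 ± 0.720 (adjusted p = 0.540) and changed its sign as deposited (+0.19). One pregnant animal of day 18, animal 3, kept a centred level of 3.75, inside the range of pregnant heifers of day 15, and without it the pregnant fall was 3.69 log2. The change in the pregnancy difference between these days, -2.31 ± 1.01 log2, did not pass (adjusted p = 0.484; without that animal -3.12, adjusted p = 0.131).

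Within days, IGFBP1 stood higher in pregnant heifers before day 18, without passing the test. On day 12 its log2 values were 9.40, 8.48, 9.10, 8.38 and 7.64 in pregnant heifers, against 7.66, 5.53, 8.74, 6.86 and 5.71 in cyclic heifers. The groups overlapped at the high end of the cyclic animals, and the difference was +1.70 ± 0.591 (95% interval 0.47 to 2.93; adjusted p = 0.616). On day 15 the values were 11.20, 9.93 and 10.88 in pregnant heifers, against 9.22, 8.72 and 9.50 in cyclic heifers. These did not overlap, and the difference of +1.52 ± 0.763 (95% interval -0.06 to 3.11) did not pass (adjusted p = 0.293).

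By day 18 the order had turned. The IGFBP1 log2 values were 7.71, 7.36, 10.98 and 8.14 in pregnant heifers, against 9.05, 9.47, 9.59 and 9.22 in cyclic heifers. All pregnant animals but animal 3 were below all cyclic animals, and animal 3 was above them all, so the difference of -0.785 ± 0.661 carried that animal (adjusted p = 0.467; without it -1.60, adjusted p = 0.0580). In the biopsies IGFBP1 read 8.86, 6.84 and 7.43 with IFNA, against 9.74, 6.83 and 9.46 with placebo and 8.24, 9.66 and 8.23 with PBS. These overlapped, with differences of -0.97 ± 0.814 from placebo (adjusted p = 0.838) and -1.0 ± 0.814 from PBS (adjusted p = 0.867).

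IGFBP2, a binding protein with a preference for IGF2, had the largest positive pregnancy difference of the 19 probe sets on day 18. Its log2 values were 9.40, 10.29, 8.82 and 9.90 in pregnant heifers, against 8.80, 8.74, 8.59 and 8.14 in cyclic heifers. The groups just failed to overlap, and the difference of +1.035 ± 0.481 (95% interval 0.04 to 2.03) did not pass (adjusted p = 0.144), though it did in a fit of these 8 arrays alone (adjusted p = 0.0435). On day 15 the values were 8.91, 7.57 and 9.11 in pregnant heifers, against 8.48, 7.34 and 7.44 in cyclic heifers, which overlapped (+0.78, adjusted p = 0.514). On day 12 the sign was the other (-0.49, adjusted p = 0.915), and the change between days 12 and 15, +1.27, did not pass (adjusted p = 0.437). In the biopsies IGFBP2 read 6.18, 6.26 and 6.29 with IFNA, against 7.06, 5.13 and 6.94 with placebo and 5.92, 6.64 and 6.43 with PBS. The IFNA animals lay inside the range of both other groups, with a difference of -0.13 ± 0.452 from placebo (adjusted p = 0.977).

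IGFBP3, the main carrier of IGF in serum and in many tissues a stromal and endothelial product, was lower in pregnant heifers on day 18. On IGFBP3 B the log2 values were 8.51, 8.35, 8.53 and 8.23 in pregnant heifers, against 9.03, 8.71, 9.00 and 8.63 in cyclic heifers. The groups did not overlap. IGFBP3 fell by 0.44 ± 0.122 log2 in pregnant heifers (95% interval -0.69 to -0.18; adjusted p = 0.0146), and the call was lost without cyclic animal 1 (adjusted p = 0.0527), cyclic animal 3 (adjusted p = 0.0512) or pregnant animal 4 (adjusted p = 0.0528). IGFBP3 A read 8.92, 9.02, 9.17 and 8.73 in pregnant heifers, against 9.84, 9.25, 9.48 and 9.00 in cyclic heifers. Cyclic animal 4 lay below 2 of the pregnant animals, and the difference missed the threshold (-0.43 ± 0.155, adjusted p = 0.0554).

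The IGFBP3 difference had the opposite sign on day 15. IGFBP3 A read 8.85, 8.87 and 8.58 log2 in pregnant heifers, against 8.52, 8.46 and 8.26 in cyclic heifers, without overlap (+0.35 ± 0.179, adjusted p = 0.30). The change of the pregnancy difference between day 15 and day 18 was -0.79 ± 0.237 on this probe set (adjusted p = 0.221) and -0.58 ± 0.187 on IGFBP3 B (adjusted p = 0.262), neither of which passed. On day 12 IGFBP3 B was 0.25 ± 0.109 log2 lower in pregnant heifers (adjusted p = 0.716). Between days 12 and 15 it rose by 0.73 ± 0.124 log2 in pregnant heifers (adjusted p = 3.69e-05; 0.364 as deposited), while its step of -0.81 by day 18 was -0.065 on the values as deposited. With IFNA, IGFBP3 B read 8.92, 8.59 and 8.87, against 9.02, 8.53 and 8.70 with placebo and 9.29, 9.02 and 8.76 with PBS, and all 3 groups overlapped. The IFNA difference from placebo (+0.04) lay 0.48 ± 0.204 log2 above the day 18 pregnancy difference on this probe set and did not pass (adjusted p = 0.296).

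IGFBP4, which inhibits IGF until the protease PAPPA cuts it, was lower in both extrudate groups than with PBS, without passing the test. Its log2 values were 8.63, 8.45 and 8.47 with IFNA, against 8.46, 8.44 and 8.66 with placebo and 8.94, 9.05 and 8.84 with PBS. Both groups with the extrudate lay below PBS and did not differ from each other beyond their spread (0.00 log2). Against PBS the differences were -0.43 ± 0.107 for IFNA (adjusted p = 0.163) and -0.42 ± 0.107 for placebo (adjusted p = 0.999), and neither passed. On day 18 it read 10.37, 10.63, 10.21 and 10.34 in pregnant heifers, against 10.31, 10.41, 10.46 and 10.19 in cyclic heifers (+0.05, 95% interval -0.28 to 0.37).

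IGFBP5, which binds to extracellular matrix, read 6.48, 6.59, 6.38, 6.60 and 6.40 log2 in pregnant heifers on day 12, against 6.01, 6.91, 5.28, 6.19 and 5.94 in cyclic heifers. One cyclic animal was above all the pregnant animals, and the difference of +0.42 ± 0.195 did not pass (adjusted p = 0.737). With IFNA it read 5.52, 6.43 and 5.49, against 5.39, 5.53 and 5.24 with placebo and 5.33, 5.46 and 5.11 with PBS. The second IFNA animal lay far above all others, and the differences were +0.43 ± 0.239 from placebo (adjusted p = 0.710) and +0.51 ± 0.239 from PBS (adjusted p = 0.579), neither of which passed.

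IGFBP6, the binding protein with the strongest preference for IGF2, passed in no comparison of pregnant with cyclic heifers. On day 18 it read 11.42, 11.36, 11.27 and 11.25 log2 in pregnant heifers, against 11.35, 11.26, 11.41 and 11.22 in cyclic heifers, a difference of 0.015 (95% interval -0.38 to 0.41). It fell between days 12 and 15 by 0.48 ± 0.199 log2 in pregnant (adjusted p = 0.0412) and 0.71 ± 0.199 in cyclic heifers (adjusted p = 0.00437), and by 0.846 and 1.06 as deposited. The pregnant step passed in 2 of the 8 fits with 1 array of these groups left out, with values from -0.715 to -0.33. In the biopsies IGFBP6 read 10.61, 9.88 and 10.17 with IFNA, against 10.06, 9.36 and 10.36 with placebo and 10.02, 10.23 and 11.07 with PBS. These overlapped, with a difference of +0.29 ± 0.337 from placebo (adjusted p = 0.893).

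Counts over days depended on scaling more than those within days. Of the 19 probe sets, 9 passed between day 12 and day 15 in pregnant heifers (4 higher and 5 lower), against 60.3% of all probe sets (39% and 21.3%), and 10 in cyclic heifers (5 and 5), against 58.6% (39.4% and 19.1%). Between day 15 and day 18, 10 passed in pregnant heifers (2 higher and 8 lower), against 52.2% (18.5% and 33.7%), and 6 in cyclic heifers (2 and 4), against 49.5% (16.7% and 32.8%). Called with the same sign on the centred values, on the values as deposited and after quantile normalisation were 8 and 7 of 19 between days 12 and 15 in pregnant and cyclic heifers, against 34.4% and 30.5% of all probe sets. Between days 15 and 18 they were 4 and 2, against 20% and 17.3%. As deposited the splits were 3 higher and 12 lower, and 2 and 13, between days 12 and 15, then 11 and 2, and 15 and 0, between days 15 and 18, again in pregnant and then cyclic heifers. Of all 24016 probe sets as deposited, 3455 were higher and 11810 lower in pregnant heifers and 2965 and 10907 in cyclic heifers between days 12 and 15. Between days 15 and 18, 18792 were higher and 1136 lower in pregnant heifers and 19100 and 1036 in cyclic heifers. The median of all probe sets moved by +0.11 and +0.14 log2 between days 12 and 15 and by -0.09 and -0.10 between days 15 and 18 on the centred scale, and by -0.25 and -0.21, then 0.66 and 0.655, as deposited.

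Cell type markers moved over the days as well, on the centred scale. Of all probe sets, 39% were higher and 21.3% lower between days 12 and 15 in pregnant heifers, and 39.4% and 19.1% in cyclic heifers. Between days 15 and 18 these shares were 18.5% and 33.7% in pregnant and 16.7% and 32.8% in cyclic heifers. Several of the marker counts lie near these shares. Between days 12 and 15 in pregnant heifers, 4 of 8 stromal markers were lower and 1 higher (median -0.29 log2), 4 of 5 smooth muscle markers were lower (-0.99), 1 of 6 endothelial markers was lower (-0.37) and 4 of 5 epithelial markers were higher (0.43). In cyclic heifers over the same days, 3 stromal (-0.23), 2 smooth muscle (-0.73) and 1 endothelial marker (-0.11) were lower and 3 epithelial markers higher (0.30). Of 3 erythrocyte markers, 2 were higher in pregnant (0.91) and 3 in cyclic heifers (0.77), and of 7 leukocyte markers 2 were higher in pregnant heifers, with 2 higher and 1 lower in cyclic heifers. Between days 15 and 18, 6 stromal markers were lower in pregnant (-0.47) and 3 in cyclic heifers (-0.30), 2 epithelial markers were lower and 1 smooth muscle marker higher in each state, and 4 leukocyte markers were higher in pregnant heifers (0.63), with 3 higher and 1 lower in cyclic heifers. The part of these shifts in the IGF steps over days was not tested.

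Other genes of the pathway were counted from a list of 38 modulators, adaptors, kinases and growth hormone axis genes, of which 19 were measured. On day 18, 3 of the 19 were lower in pregnant heifers and none higher, against 10.2% of all probe sets lower and 19% called in either direction. PIK3R2, a regulatory subunit of PI3 kinase, fell by 0.52 ± 0.0899 log2 (adjusted p = 0.000267). IGFBP7, a low-affinity relative of the binding proteins found in vessels, fell by 0.47 ± 0.0999 (adjusted p = 0.00183). AKT2, a kinase downstream of the receptors, fell by 0.33 ± 0.0925 (adjusted p = 0.0143). On day 15 only PIK3R2 passed among the 19 (-0.38 ± 0.104, adjusted p = 0.0342), against 5.07% of all probe sets. None passed on day 12 or in the biopsies, where 2 on day 12 (all probe sets 6.65%), 1 for IFNA against placebo (8.47%) and 4 for IFNA against PBS (9.34%) had an unadjusted limma p below 0.05. The median difference of the 19 on day 18 was -0.08 log2, against -0.03 for all probe sets.

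Over the days the pathway list moved in both directions on the centred scale, the one scale on which it was counted. Between days 12 and 15, 3 were higher and 9 lower in pregnant heifers (60.3% of all probe sets passed), led by STC1, an inhibitor of PAPPA (+1.14), the growth hormone receptor GHR (-1.08) and the kinase AKT1 (-0.98). In cyclic heifers 4 were higher and 10 lower (58.6%), led by AKT1 (-1.04). Between days 15 and 18 the counts were 3 and 5 in pregnant (52.2%) and 3 and 4 in cyclic heifers (49.5%), led in both by the PI3 kinase catalytic subunit PIK3CA (+0.87 and +0.75) and the protease HTRA1 (-0.80 and -0.66).

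Genes with the pattern most like a member were found by Pearson's r of median-centred levels over the 24 slaughter arrays, which share the day structure, so r within the 6 groups is given beside it. For IGFBP1 these were PSPH, the last enzyme of serine synthesis (r = 0.936, within groups 0.862), SLC5A1, the sodium-glucose cotransporter (0.866 and 0.764), and CRY1, a repressor of the circadian clock (0.849 and 0.799). PSPH was highest in the same animal of the day 18 pregnant group: its log2 values there were 8.34, 7.53, 10.34 and 8.62 in pregnant heifers, against 9.63, 9.82, 8.91 and 9.21 in cyclic heifers. SLC5A1 (8.07) and CRY1 (10.46) were also highest in that animal among the 4. For IGF1 A the nearest was ABLIM1, an actin-binding protein (0.921, within groups 0.699), and for IGFBP3 A DECR1, a mitochondrial enzyme of fatty acid oxidation (0.745 and 0.664). For IGF2 A the nearest were LAMA4, a laminin chain of basement membranes (0.880 and 0.577), and PEG3, an imprinted zinc finger gene (0.867 and 0.463). Such a likeness is a description of these arrays.

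The biopsies differed from the slaughter tissue in part of the system. For 6 of the 19 probe sets the median-centred levels of the 9 biopsies and the 24 slaughter arrays did not overlap, each time lower in the biopsies. The share of all probe sets without overlap was not computed, so the count cannot be read as particular to these genes. IGF2 was farthest apart, at -0.24 to 1.59 in biopsies against 3.19 to 4.62 in slaughter tissue on IGF2 A and -0.47 to 0.56 against 2.04 to 4.15 on IGF2 B. IGFBP4 lay at 1.81 to 2.41 in biopsies against 2.57 to 3.365, and IGF2R B at -2.0 to -0.69 against -0.25 to 1.16. The other 2 were IGF1 B and IGF2 D. Sampling method, the GAPDH and actin 3′ minus 5′ differences and array set all separate these arrays and cannot be told apart, and no test was made.

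Within the biopsies, IGF2 A ran against the GAPDH 3′ minus 5′ difference. Its relation to the actin difference was not computed, so a relation to RNA integrity itself was not tested. IGF2 A read 8.02, 6.75 and 6.70 log2 with IFNA, against 6.75, 6.37 and 8.23 with placebo and 6.68, 6.59 and 7.25 with PBS, with 1 high animal in each group. The IFNA difference from placebo was 0.04 ± 0.507 (adjusted p = 0.993). The centred level of IGF2 A was highest where the GAPDH 3′ minus 5′ difference was smallest, with Pearson's r = -0.908 (exact permutation p = 0.000226; adjusted for the 19 relations computed 0.00429; n = 9) and Spearman's rho = -0.917 (exact permutation p = 0.00131; adjusted 0.0249). Without the 2 arrays farthest from the median difference r was -0.893, and within the 3 groups it was -0.918. IGF1R A followed (r = -0.866, exact permutation p = 0.00195, adjusted 0.0186; rho = -0.85, exact permutation p = 0.00607, adjusted 0.0524; r = -0.705 without the 2 farthest). No other probe set had an adjusted p below 0.05. Next came IGF2R B (r = -0.779, and -0.797 without the 2 farthest) and IGFBP6 (r = -0.767 and -0.796), both with an adjusted exact permutation p of 0.066. The relation was computed for the 19 probe sets only, so whether it is particular to them is not known. The other IGF2 probe sets did not share the relation of IGF2 A: IGF2 B had r = -0.621 (exact permutation p = 0.0566, adjusted 0.192), which was 0.0308 without the 2 farthest arrays. IGF2 C had r = -0.0346, and IGF2 D ran the other way, with r = 0.61 (exact permutation p = 0.0756, adjusted 0.192) and rho = 0.833 (exact permutation p = 0.00827, adjusted 0.0524). The IGF1 probe set that was lowest with IFNA, IGF1 C, had r = 0.26 (exact permutation p = 0.493).

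**Figure D5:**
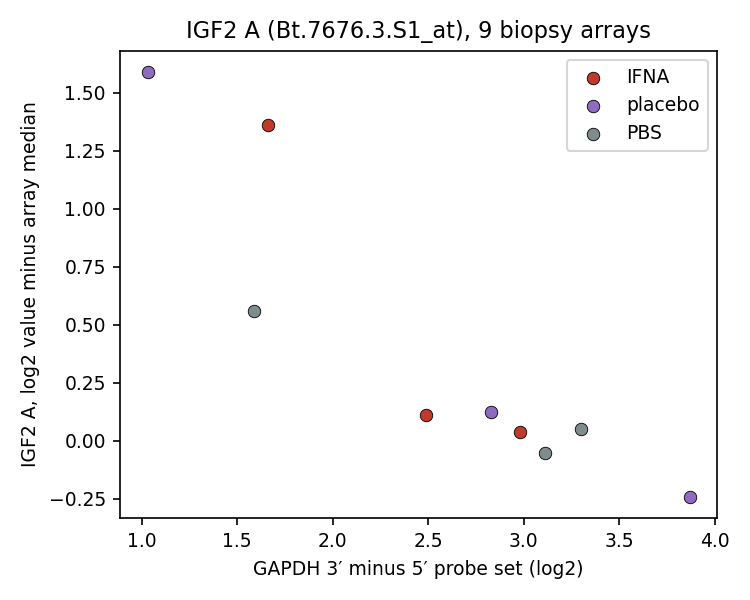
Median-centred log2 level of IGF2 A against the GAPDH 3′ minus 5′ log2 difference in the 9 biopsy arrays, with a marker for each of IFNA, placebo and PBS. The IGF2 A level runs down with the GAPDH difference (r = -0.908), and points of the 3 treatments lie among each other.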

How the data were processed

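Total RNA was extracted with Trizol, labelled by the One-Cycle protocol and hybridised to Affymetrix bovine arrays, per the labels' protocols. The deposited log2 values were made by the authors with RMA in the affy package, per the submitters' processing notes. Whether all arrays were normalised together is not given in the sources used here. The IGF genes and marker and pathway lists were chosen with earlier results of these data known. Probe sets were named from the platform annotation (13292 with 1 symbol, 86 with several, 10638 with none), with symbols checked against RefSeq by gene number, and no genome positions are given. After 112 control probe sets were left out, linear models with 1 mean per group ran on the other 24016 in limma 3.58.1 under R 4.3.3 (two-sided, moderated by eBayes), separately for the 9 biopsy and 24 slaughter arrays, and for all 33 where treatment and pregnancy differences were compared. Day comparisons used values centred on each array's median. All members and their probe sets are named, and the list genes that passed. Pathway genes were read on their brightest probe set. Scripts were tested on simulated data. Correlations used exact permutation (scipy 1.17.1). Replicate numbers were not used for pairing, and the alternatives were scaling, groups fitted alone, a filter on dim probe sets, array weights, an intensity trend, GAPDH as a covariate, a replicate block and each array left out.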

Additional observations from a re-analysis of the deposited data

Results flagged for a closer look

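In 3 of 76 groups of 4 or 5 animals, 1 animal stood apart from the others of its group by Dixon's criterion; chance alone gives about 1 in 20 groups. IGF1 A read 8.23 log2 in day 12 pregnant animal 5, against 8.49 to 8.59 in the other pregnant heifers of that day. IGF2R B read 7.80 in day 18 pregnant animal 4, against 7.74 to 7.75 in the others. IGF1R B read 6.09 in day 18 cyclic animal 2, against 5.86 to 5.88 in the others.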

How the results depend on the processing

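The precision is set by 3 to 5 arrays a group, and signal over background is unknown, since detection calls were not used here. The call counts below are of 19 probe sets. On day 18 the count called was 3, against 5 after quantile normalisation, with array weights and with a replicate block, and 7 in a fit of the 2 groups alone; with 1 array left out it was 1 to 6 (1 without day 18 cyclic animal 1, 2 without cyclic animal 3 or pregnant animal 4, 6 without day 12 cyclic animal 4). After subtraction of group means, same-numbered animals correlated at 0.0296 to 0.204 on day 12 and 0.0238 to 0.153 on day 15. On day 18 the range was -0.216 to 0.0771, and in the biopsies -0.337 to 0.368. The labels do not pair animals by number, and whether the numbers reflect pairs was not tested. The block changed no other count. With array weights the count was 1 for IFNA against placebo, 2 for IFNA against PBS and 1 for the IFNA against the day 15 pregnancy difference. With 1 array left out the counts were 7 to 10 and 9 to 11 in pregnant and 8 to 11 and 5 to 6 in cyclic heifers for the steps to days 15 and 18, and 0 to 0 elsewhere. As deposited, 15 were called for the cyclic step to day 18 and 15 for the pregnant step to day 15. Among probe sets called on at least 1 of the 2 scales, signs turned without centring for the cyclic step to day 15 in IGF2R A (-0.0187) and IGFBP3 B (-0.0293). For the cyclic step to day 18 they turned in IGF1 A (0.44) and IGF1 B (0.21), IGF2 B (0.65) and IGF2 C (0.20), IGF1R A (0.54), IGF2R A (0.25) and IGFBP3 B (0.52). For the pregnant step to day 15 they turned in IGF2 C (-0.0193) and IGF2 D (-0.26) and IGF2R A (-0.33). For the pregnant step to day 18 they turned in IGF1 A (0.0625), IGF2 B (0.56) and IGF2 C (0.24), IGF1R A (0.65), IGF2R A (0.22) and IGFBP3 A (0.19). Among those called on neither, they turned in IGFBP1 for the cyclic step to day 18 (0.19) and in IGFBP3 A (-0.26) and IGFBP4 (-0.16) for the pregnant step to day 15. The intensity trend and the GAPDH covariate changed no call in the 266 and 57 values computed with them. The cause of these changes was not tested, apart from the scaling itself.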

Other observations

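IGFBP1 and IGFBP3 lie next to each other, with 0 annotated genes between them, in the RefSeq annotation of the bovine assembly, as do IGFBP2 and IGFBP5. The median-centred levels of these neighbours, with IGFBP3 read on probe set A, had Pearson's r of 0.018 and -0.016 over the 24 slaughter arrays. On the brightest probe set of each gene, the members most alike were IGF1 A and IGF2R A (r = 0.756, within groups 0.478), IGFBP2 and IGFBP4 (0.699 and 0.690) and IGF2 A and IGFBP6 (0.676 and 0.386). The probe sets called on day 18, IGF1 C and IGF2R B, were not compared in this way. These values are a description of arrays that share the day structure.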
